A study of Mus musculus with 6 samples.

Results

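Erythroid genes are genes whose transcripts are made mainly by developing red blood cells, and 9 of them were followed here in the embryonic mouse pylorus: Hba-a1, Hbb-bt, Hbb-bs, Alas2, Slc4a1, Epb42, Ahsp, Klf1 and Rhag. The members were chosen by gene symbol among the probes of 6 one-colour CodeLink whole-genome arrays, which named 18509 genes by a probe of 1 gene. Of the 9 genes, 6 had a probe of their own, 2 were found only on probes annotated to several genes, and 1, Hbb-bs, was matched to no probe. The 9 probes found this way all passed the filter on dim signal. Each array held the RNA of 1 embryo at E18.5, late in gestation, taken from the distal stomach with 1 to 2 mm of tissue on either side of the pyloric narrowing. The parents each carried 1 Cre allele of Bapx1 (Nkx3-2), a homeobox gene of the gut and skeletal mesenchyme, and the genotype of an embryo was read from its yolk sac. The labels gave 3 embryos as knockout and 3 as wildtype littermates, and the litter code in each label tied 1 knockout embryo to 1 wildtype embryo, which gave pairs 1 to 3. The project line in the headers of the scanner exports was filled for pair 1 and empty for pairs 2 and 3. That split is called scan batch here (A for pair 1, B for pairs 2 and 3). Whether it marks separate scans was not tested. The Nkx3-2 probe itself read 7.76, 8.07 and 7.82 on the arrays labelled knockout, against 7.49, 7.79 and 8.03 on the arrays labelled wildtype (log2 normalized intensity), a difference of 0.11 (SE 0.19). The sources used here do not say whether this probe lies inside the altered part of the gene, so it does not check the labels, which are used as given.

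Adult-type hemoglobin is built of alpha-globin chains, such as that of Hba-a1, and beta-globin chains, such as those of Hbb-bt and Hbb-bs, each holding a heme. Alas2 makes the first intermediate of heme in erythroid cells, Ahsp is a chaperone that binds free alpha-globin, Slc4a1 (band 3), Epb42 and Rhag sit in or under the red cell membrane, and Klf1 is a transcription factor that activates beta-globin and many other erythroid genes. In the late mouse fetus red cells are made mainly in the liver and reach the gut in its vessels, and young red cells still carry globin mRNA, so the transcripts of these genes in a piece of gut report its blood. In bulk tissue, fewer red cells and less RNA per red cell cannot be told apart.

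Promoters are among the sequences on which the regulation of a gene acts, and 5 of the members' promoters are shown. They are those of the globin members, 2 of which were measured only through shared probes, and those of Alas2 and Rhag. The last named had probes of their own well above background. Each is the 250 bases before the annotated start in RefSeq (GRCm38.p6), 5′ to 3′ along the gene. Capitals mark 3 motifs sought on both strands: CACCC, the core of the sites bound by Klf1; the GATA forms, which are GATAA or GATAG after either A or T; and CCAAT.
Hba-a1 (chr11:32283422-32283671, plus strand): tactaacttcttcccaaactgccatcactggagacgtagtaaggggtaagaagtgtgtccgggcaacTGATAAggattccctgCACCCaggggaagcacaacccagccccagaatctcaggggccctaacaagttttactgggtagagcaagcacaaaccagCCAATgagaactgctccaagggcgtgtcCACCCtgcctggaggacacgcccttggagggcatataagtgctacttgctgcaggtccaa
Hbb-bt (chr7:103813924-103814173, minus strand): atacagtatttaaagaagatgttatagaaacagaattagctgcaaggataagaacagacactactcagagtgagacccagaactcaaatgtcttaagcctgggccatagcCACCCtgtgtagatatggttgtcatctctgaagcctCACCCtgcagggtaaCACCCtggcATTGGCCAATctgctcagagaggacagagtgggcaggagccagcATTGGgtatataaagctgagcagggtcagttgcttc
Hbb-bs (chr7:103827929-103828178, minus strand): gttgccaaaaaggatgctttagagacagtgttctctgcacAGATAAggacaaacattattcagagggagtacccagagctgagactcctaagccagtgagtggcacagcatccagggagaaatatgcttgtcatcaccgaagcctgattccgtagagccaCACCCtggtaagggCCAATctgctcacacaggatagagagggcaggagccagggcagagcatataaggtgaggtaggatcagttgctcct
Alas2 (chrX:150547167-150547416, plus strand): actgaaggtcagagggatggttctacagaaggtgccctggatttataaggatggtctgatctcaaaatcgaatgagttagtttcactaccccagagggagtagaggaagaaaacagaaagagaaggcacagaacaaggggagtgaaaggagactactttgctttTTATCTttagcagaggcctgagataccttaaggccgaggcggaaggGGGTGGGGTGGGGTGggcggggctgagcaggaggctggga
Rhag (chr17:40810899-40811148, plus strand): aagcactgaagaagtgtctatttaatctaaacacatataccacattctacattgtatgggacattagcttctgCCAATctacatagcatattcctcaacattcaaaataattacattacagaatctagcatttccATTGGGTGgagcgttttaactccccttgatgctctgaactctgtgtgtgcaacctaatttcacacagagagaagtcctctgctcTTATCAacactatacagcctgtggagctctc
The table of promoters held 7 of the 9 members, without Ahsp and Slc4a1. CACCC was found in 6 of the 7, against 52.0% of 32851 promoters of the same length, and a GATA form in 6 of the 7, against 26.5%. Both occurred in 5 of the 7, against 11.8% of all promoters, and CCAAT in 5 of the 7, against 33.8%. In Hbb-bt the first bases of the 3 CACCC matches lay 140, 104 and 89 bases before the start and no GATA form was found in the window. In Hbb-bs 1 CACCC lay 90 and 1 CCAAT 76 bases before the start, with AGATAA at 210. The Hba-a1 window held CACCC at 167 and 60, CCAAT at 88 and TGATAA at 183. The Alas2 window held 3 CACCC matches on the opposite strand within 40 bases of the start, and AGATAA at 86 on that strand. In Rhag 1 CACCC and 1 CCAAT match share bases, and TGATAA lay on the opposite strand 31 bases before the start used. That start lies downstream of the first annotated base of the Rhag gene, 40811099, so the end of the window, with TGATAA, falls within the annotated gene. A match shows only that the letters are present.

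The median spot signal above background was 207 on the knockout and 204 on the wildtype array of pair 1, and 109 to 131 on the arrays of pairs 2 and 3, against local backgrounds of 38 to 46. Per array, 13.2% to 16.7% of the gene probes gave a near-background spot and 55 to 145 probes a saturated one. The stomach tissue itself was recognisable: Gast, the gastrin gene of antral endocrine cells, read 10.81 to 11.31 on the knockout arrays and 11.43 to 11.90 on the wildtype arrays. Replicates are separate embryos, and 3 a group limit the precision of every value.

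No erythroid probe was called different by label. Of the 9, none passed limma's test of knockout against wildtype (adjusted p = 1.00 for each), and none had an unadjusted p under 0.05. Over all 17358 features tested, single genes or probes of several genes, 0% passed the adjusted threshold, 0.253% were lower and 0.893% higher at an unadjusted p under 0.05. The median difference over the 9 probes was 0.01 on the log2 scale, with 4 of 9 below 0, beside −0.01 over all features. By pair the members' median was −0.03, −0.06 and 0.00 in pairs 1, 2 and 3. Of the 8 member probes with a value on all arrays, 3 were lower in the knockout array of every pair and 2 were higher, where 11.5% of features were lower and 11.6% higher in every pair. Those lower in every pair were the alpha-globin probe, the probe of the beta-globin cluster and Alas2, and those higher were Klf1 and Epb42. At the 2 globin probes both spots of pair 1 were saturated. Of the lower probes, therefore, only Alas2 had a measured direction in every pair. The plot of the members by array shows each probe on its own scale.

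**Figure D1:**
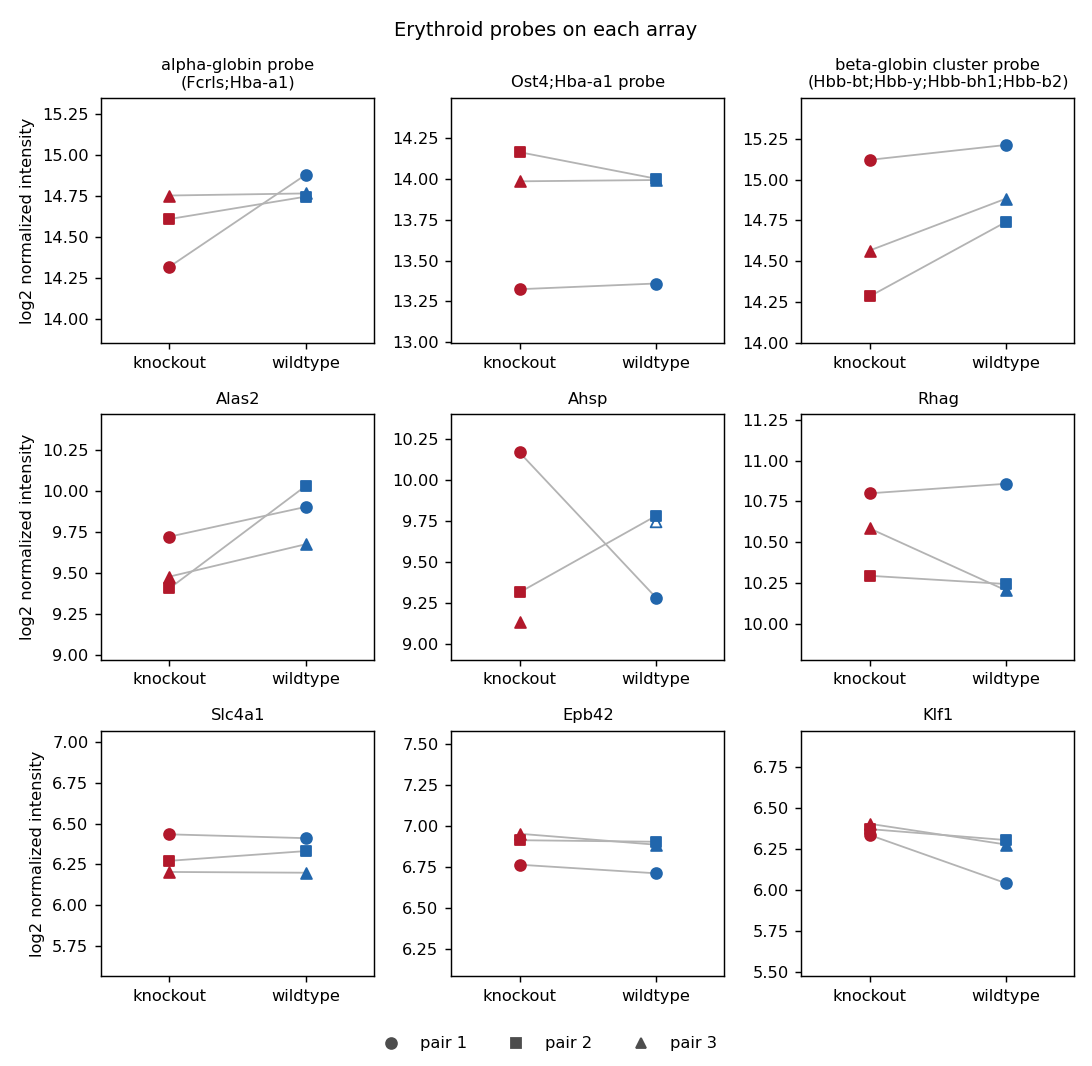
Log2 normalized intensity of the 9 erythroid probes, knockout arrays at the left and wildtype arrays at the right of each panel, with lines joining arrays of a litter pair. All panels span the same number of log2 units on different ranges, and the hollow triangle for Ahsp is a spot flagged as contaminated. Alas2 and the beta-globin cluster probe read lower in the knockout array of each pair, but both beta-globin cluster spots of pair 1 were saturated. Ahsp runs in opposite directions in pairs 1 and 2.

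Alpha-globin was read on 2 probes that name another gene as well. The probe GE34550, annotated to Fcrls and Hba-a1, was designed on an expressed sequence that the authors' report describes as similar to alpha-globin. It read 14.32, 14.61 and 14.75 on the knockout arrays, against 14.88, 14.75 and 14.77 on the wildtype arrays. The lowest values were those of knockout embryos 1 and 2, and the third knockout value lay inside the wildtype range. The difference was −0.24 (SE 0.17, unadjusted p = 0.201), and by pair it was −0.56, −0.14 and −0.01. The scanner reported the spot as saturated on all 3 wildtype arrays and on 1 knockout array, that of embryo 1, so neither group's level is fully measured and no fold is given. Both arrays of pair 1 are among these, so neither the size nor the direction of the difference in pair 1 is measured. In the authors' series table the ratio of knockout to wildtype for this probe was 0.859, 0.678 and 1.19 in pairs 1 to 3, so the sign of pair 3 differs between the deposited forms of the data.

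The second probe, GE121170, is annotated to Ost4, a small subunit of the oligosaccharyltransferase present in most cells, and to Hba-a1. It read 13.32, 14.16 and 13.98 on the knockout arrays, against 13.36, 14.00 and 13.99 on the wildtype arrays, with no saturated spot. Both arrays of pair 1 were low and the other 4 high, in either label, and litter and scan batch cannot be told apart in that gap. The difference by label was 0.04 (SE 0.29). The correlation of the 2 alpha-globin probes over the 6 arrays was 0.28, and how much of the signal of GE121170 comes from Ost4 was not tested.

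Beta-globin was read on the probe GE117921, annotated to Hbb-bt, Hbb-y, Hbb-bh1 and Hbb-b2, so that adult and embryonic chains of the cluster share it. It read 15.12, 14.29 and 14.57 on the knockout arrays, against 15.21, 14.74 and 14.88 on the wildtype arrays. Knockout embryos 2 and 3 lay below every wildtype value, while knockout embryo 1 lay above 2 of the 3 wildtype values. The difference was −0.29 (SE 0.25, unadjusted p = 0.295), and within the pairs −0.09, −0.46 and −0.32. Pairs 2 and 3, fitted alone, gave −0.51 (SE 0.16, unadjusted p = 0.0188, adjusted p = 0.297). That lies outside both pair values, and the intensities given above put the difference in batch B at −0.39. For the fit alone the arrays of batch B were brought to common quantiles anew, so it rested on other values than those given above. In that fit 2042 of 16716 features had an unadjusted p under 0.05, so its p does not single out this probe. The spot was saturated on 1 knockout and 2 wildtype arrays, both arrays of pair 1 among them, so neither the size nor the direction of the difference in pair 1 is measured. In the authors' series table the ratio of knockout to wildtype was 1.01, 0.728 and 0.791 in pairs 1 to 3, so pair 1 is not lower in that form of the data.

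Alas2 had the lowest unadjusted p of the 9 probes. It read 9.72, 9.41 and 9.48 on the knockout arrays, against 9.90, 10.03 and 9.68 on the wildtype arrays, at 13.2 to 28.7 times the local background. The knockout array was the lower of each pair, by −0.18, −0.63 and −0.20, but knockout embryo 1 lay above wildtype embryo 3, so the groups overlapped. Its mean was 9.54 ± 0.17 in knockout and 9.87 ± 0.18 in wildtype arrays (SD, n = 3 each), a difference of −0.34 (SE 0.17) or a ratio of 0.792 (unadjusted p = 0.0917). Blocked on litter pair, this difference had an unadjusted p of 0.0533 (SE 0.14, adjusted p = 1.00), and with batch as a term 0.0368 (SE 0.13, adjusted p = 0.793).

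Ahsp, named here through the older description erythroid associated factor in the authors' report, was higher in the knockout array of pair 1 and lower in that of pair 2. It read 10.17, 9.31 and 9.13 on the knockout arrays, against 9.28 and 9.78 on the wildtype arrays of pairs 1 and 2. The third wildtype spot was flagged as contaminated and left out; with flags ignored it read 9.74. Knockout embryo 1 was the highest of all and its littermate among the lowest, whereas the knockout value was the lower in pair 2 and, with the flagged spot, in pair 3. The difference was 0.89 in pair 1 and −0.47 in pair 2, and over both labels 0.01 (SE 0.36). Batch A holds 1 array of each label and batch B only 1 wildtype value of Ahsp, so whether the difference depends on the litter or batch could not be tested with replicates.

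**Figure D2:**
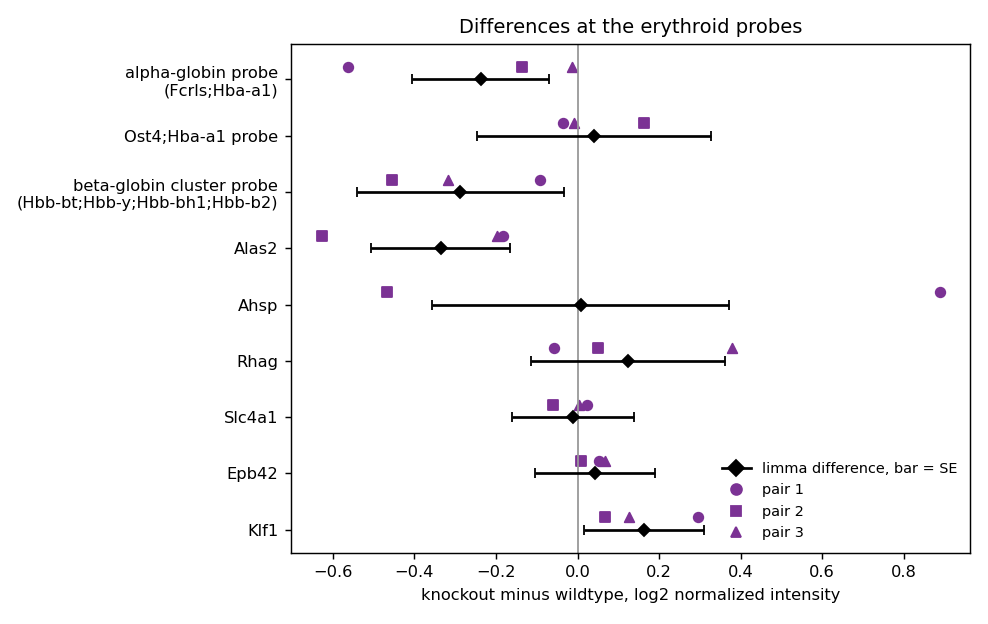
Difference of knockout minus wildtype in log2 normalized intensity at each of the 9 erythroid probes. Diamonds with bars are the limma difference and its standard error over all arrays, and purple symbols are the litter pairs. The pairs of Ahsp lie at 0.89 and −0.47, while the 3 pairs of Alas2 all lie below 0.

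Of the membrane genes, only Rhag had a signal above negative controls on every array. Rhag, the Rh-associated glycoprotein, read 10.80, 10.30 and 10.59 on the knockout arrays, against 10.86, 10.25 and 10.21 on the wildtype arrays. Both arrays of pair 1 were the highest, and only pair 3 differed by more than 0.1, with the knockout embryo higher by 0.38. The difference by label was 0.12 (SE 0.24, unadjusted p = 0.619). Slc4a1, the anion exchanger band 3, read 6.20 to 6.43 on the knockout and 6.20 to 6.41 on the wildtype arrays, a difference of −0.01 (SE 0.15). Epb42, which ties band 3 to the skeleton, read 6.76 to 6.95 on the knockout and 6.71 to 6.91 on the wildtype arrays, a difference of 0.04 (SE 0.15). The Slc4a1 spot exceeded the 95th percentile of the 320 negative control spots on 1 of the 6 arrays and the Epb42 spot on 2, so neither difference carries much information.

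Klf1 was the only member whose groups did not overlap, at a signal within the range of the negative controls. It read 6.33, 6.37 and 6.40 on the knockout arrays, against 6.04, 6.30 and 6.28 on the wildtype arrays, and 2.25% of the 16198 features with complete values had all knockout arrays above all wildtype arrays. The difference was 0.16 (SE 0.15, unadjusted p = 0.307). Its spot exceeded the 95th percentile of negative controls on 0 of 6 arrays and was flagged near background on 1 wildtype array. The other 6 member probes exceeded that percentile on every array. Without the 3 probes at negative control level, a choice made after seeing the data, the members' median difference was −0.12, with 3 of 6 below 0.

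As measures of blood in the tissue, some members varied less and some more than the median feature. The mean centred profile of the 8 probes with complete values was −0.02, −0.08 and 0.00 on the knockout arrays, against 0.05, 0.05 and −0.01 on the wildtype arrays. The mean of Alas2, Rhag and Ahsp alone, with the flagged Ahsp spot kept, was 0.30, −0.25 and −0.19 on the knockout arrays, against 0.09, 0.10 and −0.05 on the wildtype arrays. Knockout embryo 1 was highest and knockout embryos 2 and 3 lowest on this mean. Over all arrays the highest and lowest values of a probe differed 1.54-fold for Alas2, 1.57-fold for Rhag, 1.90-fold for the beta-globin cluster probe and 1.48-fold for alpha-globin, where the median feature differed 1.60-fold. The Ost4 and Hba-a1 probe differed 1.79-fold, Klf1 1.29-fold, Epb42 1.18-fold and Slc4a1 1.18-fold. Ahsp, without a value on 1 array, read 9.13 to 10.17. At the 2 globin probes with saturated spots these ranges are not fully measured. For alpha-globin both the highest and the lowest spot were saturated. Over the 6 arrays, which share batches and litters, the beta-globin cluster probe had a correlation of 0.65 with Alas2 and 0.64 with Rhag, and Alas2 and Rhag one of 0.12. Its correlation was −0.03 with the alpha-globin probe, 0.66 with Slc4a1, −0.70 with Klf1, −0.86 with Epb42 and −0.89 with the Ost4 and Hba-a1 probe. The 8-probe mean includes 3 probes at negative control level and the probe shared with Ost4. Of these, Epb42, Klf1 and the Ost4 and Hba-a1 probe ran opposite to the beta-globin cluster probe.

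By litter, no member was called either. In limma with label and pair as terms, pair 3 minus pair 2, which share a scan batch, gave each of the 9 members an adjusted p of 1.00 and none an unadjusted p under 0.05. Of 17347 features 0.0231% passed, and 0.732% were lower and 0.876% higher at an unadjusted p under 0.05. The member with the widest fitted gap was Ahsp at −0.52 (SE 0.46). Pair 3 had only its knockout value for Ahsp, 9.13 against 9.31 in the knockout array of pair 2. The fitted gap therefore also depends on the label difference in pairs 1 and 2. The beta-globin cluster probe followed at 0.21 (SE 0.15), then Alas2 at −0.14 (SE 0.17) and Rhag at 0.13 (SE 0.16). Within batch B the 4 arrays spanned 1.54-fold for Alas2, 1.51-fold for the beta-globin cluster, 1.30-fold for Rhag and 1.11-fold for alpha-globin, beside 1.26-fold for the median feature. Pair 1 against the others cannot be told apart from the scan batch. Its mean minus that of pairs 2 and 3 was 0.55 for the beta-globin cluster probe, 0.50 for Rhag, 0.16 for Alas2, −0.12 for alpha-globin and −0.69 for the Ost4 and Hba-a1 probe, where the median size of that gap over features was 0.37.

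Embryonic globins are made by the primitive red cells of early development. Of the globin probes, 1 annotated to embryonic chains differed most between pair 1 and the other pairs, a gap in which litter and scan batch cannot be told apart. The probe annotated to Hbb-y and Hbb-bh1, both embryonic beta-like chains, read 11.89, 8.43 and 9.01 on the knockout arrays, against 12.19, 9.37 and 9.13 on the wildtype arrays. Both embryos of pair 1 were high and the other 4 low, an 8.32-fold gap between the batches. The knockout array was the lower in each pair, and the difference by label was −0.46 (SE 1.13). A probe of Hbb-y alone had the opposite gap, reading 6.86, 7.58 and 7.72 on the knockout arrays, against 7.08, 7.70 and 7.96 on the wildtype arrays, lowest in pair 1 in either label and again lower in the knockout array of each pair. Hba-x, the embryonic alpha-like chain, read 6.68, 7.04 and 7.30 on the knockout arrays, against 6.57 and 6.70 on the wildtype arrays that had a value. For Hba-x the mean of pair 1 minus that of the other pairs was −0.39, near the median size of 0.37 over features. Another 2 probes without a gene symbol, described in the authors' report as similar to alpha-globin, were picked by that description after their values were seen, and both were lower in the knockout array of every pair. In all, 6 of the 8 globin probes read lower in the knockout array of every pair after normexp and quantile normalization. Among the features tested with complete values that share was 11.5%. Of the other globin probes, 1 was mixed and 1 had no value in a pair. At 2 of the 6, the alpha-globin and beta-globin cluster probes, both spots of pair 1 were saturated, so that direction is not measured. Another 2, those without a gene symbol, were not among the features tested. In the series table the alpha-globin and beta-globin cluster probes each had 1 pair above a ratio of 1, as given above. These probes can share target sequence, so the 6 are not independent measurements. By batch, 3 of the 8 were higher and 5 lower in pair 1 than in pairs 2 and 3.

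**Figure D3:**
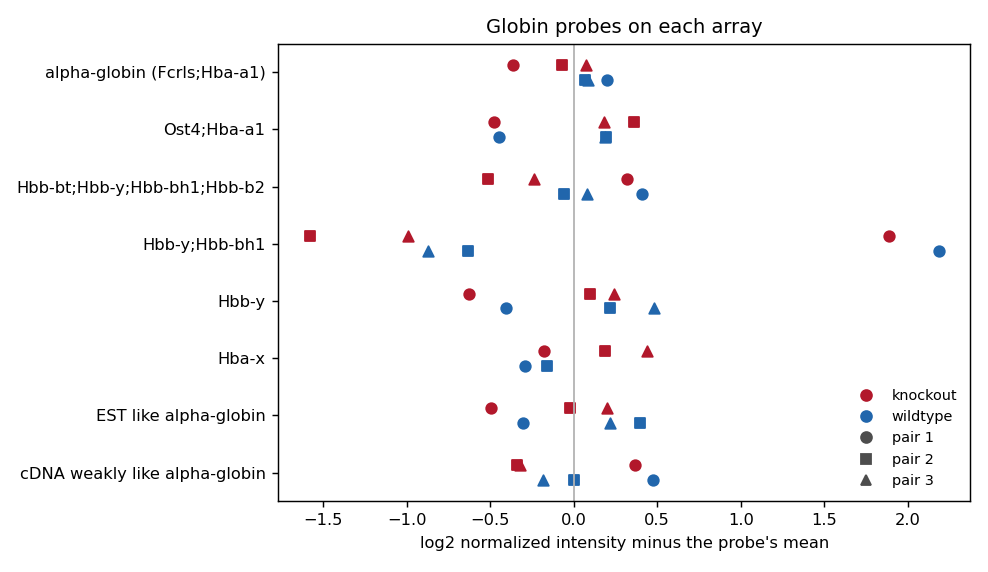
Log2 normalized intensity of the 8 globin probes on each array, minus the mean of that probe over the arrays, knockout in red above wildtype in blue. The Hbb-y;Hbb-bh1 probe spans the widest range, with both arrays of pair 1 near 2 units above its mean. In every pair 6 of 8 probes read lower in the knockout array, but at 2 of these both spots of pair 1 were saturated.

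No gene of the wider erythroid programme was called either. Over 5 lists of other erythroid genes, 64 genes in all, 53 were tested, 0 passed limma's adjusted threshold and 0 had an unadjusted p under 0.05. Of the 53, 24 differences were above and 29 below 0, with a median of −0.02. Of 49 with complete values 10 were lower and 4 higher in the knockout array of every pair, beside 11.5% and 11.6% of all features. Among membrane and skeleton genes, 4 of 11 were above and 7 below 0. Those with the largest moderated t-statistic were Kel, the Kell blood group antigen, at 0.34 (SE 0.20), Sptb, erythroid beta-spectrin, at −0.43 (SE 0.30), and Mpp1, a membrane-associated guanylate kinase homologue of red cells, at 0.54 (SE 0.57). Among enzymes, carriers and late maturation genes, 6 of 14 were above and 8 below 0. The ubiquitin-conjugating enzyme gene Ube2l6 stood at 0.22 (SE 0.22) and the biliverdin reductase gene Blvrb at −0.12 (SE 0.15). Among 12 genes of heme synthesis and iron supply, 7 were above and 5 below 0, led by the heme-binding protein gene Hebp1 at 0.40 (SE 0.23), the coproporphyrinogen oxidase gene Cpox at 0.34 (SE 0.24) and the uroporphyrinogen decarboxylase gene Urod at 0.37 (SE 0.32). Many cells besides red cells use these enzymes. Among 14 transcription factors and signalling genes of the erythropoietin pathway, 6 were above and 8 below 0. Stat5a, a transcription factor downstream of the erythropoietin receptor, stood at −0.62 (SE 0.43), the stem cell factor receptor gene Kit, also a marker of gut pacemaker cells, at −0.42 (SE 0.32), and Cbfa2t3, a corepressor, at 0.18 (SE 0.17).

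Markers of other cells that a piece of fetal gut can hold were read beside the members, none of them past the adjusted threshold. Liver genes stood out on 1 array. Their list mean, centred over arrays, was 1.98 on the array of knockout embryo 1 and −0.65 to −0.21 on the other 5, and 9 of 11 genes were highest there. Alb, albumin, read 12.82 on that array and 6.80 to 8.59 on the rest. The summed linear level of the 11 genes was 16095.7 to 42400.5 on the knockout arrays, against 15402.8 to 18643.3 on the wildtype arrays. Afp, alpha-fetoprotein, differed by 1.16 (SE 0.85), the fibrinogen gene Fgg by 0.94 (SE 0.70) and the apolipoprotein gene Apoa2 by 1.14 (SE 0.90). The fetal liver is a source of red cells, and knockout embryo 1 was also the embryo with the highest Ahsp; the part of liver RNA in that value was not tested. Alas2 was lower in that embryo than in its littermate, by −0.18.

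Granulocyte and mast cell markers were high on the same array. Of 10 such genes 9 were highest in knockout embryo 1, with S100a8 at 10.38, S100a9 at 10.76 and Camp at 8.30 there, against 9.10, 9.46 and 7.23 in its littermate. The list mean on that array was 0.74, and −0.27 to 0.12 on the other 5. Over 9 of these genes with complete values the sum was 3181 to 7656.1 on the knockout arrays, against 3541.1 to 5279.3 on the wildtype arrays. By label, Ngp differed by 0.41 (SE 0.22), Cma1 by 0.21 (SE 0.19) and Cpa3 by 0.25 (SE 0.27). Platelet genes, a second cell type carried in blood, split 7 above and 5 below 0, and 8 of the 12 were highest in knockout embryo 1. Their sum was 4606.5 to 6647.3 on the knockout arrays, highest in that embryo, against 5299.8 to 5831.5 on the wildtype arrays. By label they were led by Gp9 at −0.26 (SE 0.17), Ppbp at −0.53 (SE 0.47) and Gp1ba at −0.22 (SE 0.32). Leukocyte and macrophage genes had a median of 0.02, with Cd14 at −0.38 (SE 0.32), Cd74 at 0.24 (SE 0.50) and Tyrobp at 0.06 (SE 0.21). Endothelial genes, which mark the vessels that hold the blood, were above 0 for 9 of 10, with a median of 0.16. Vwf, von Willebrand factor, read 9.35, 9.30 and 9.56 on the knockout arrays, against 8.34, 8.97 and 8.54 on the wildtype arrays, a difference of 0.79 (SE 0.20, unadjusted p = 0.00653, adjusted p = 1.00), with Kdr at 0.16 (SE 0.14) and Tie1 at 0.25 (SE 0.30). Spleen and spleen mesenchyme genes gave 3 of 7 above 0, led by Nkx2-5 at −0.35 (SE 0.35), Tlx1 at −0.12 (SE 0.14) and Wt1 at 0.16 (SE 0.25).

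**Figure D4:**
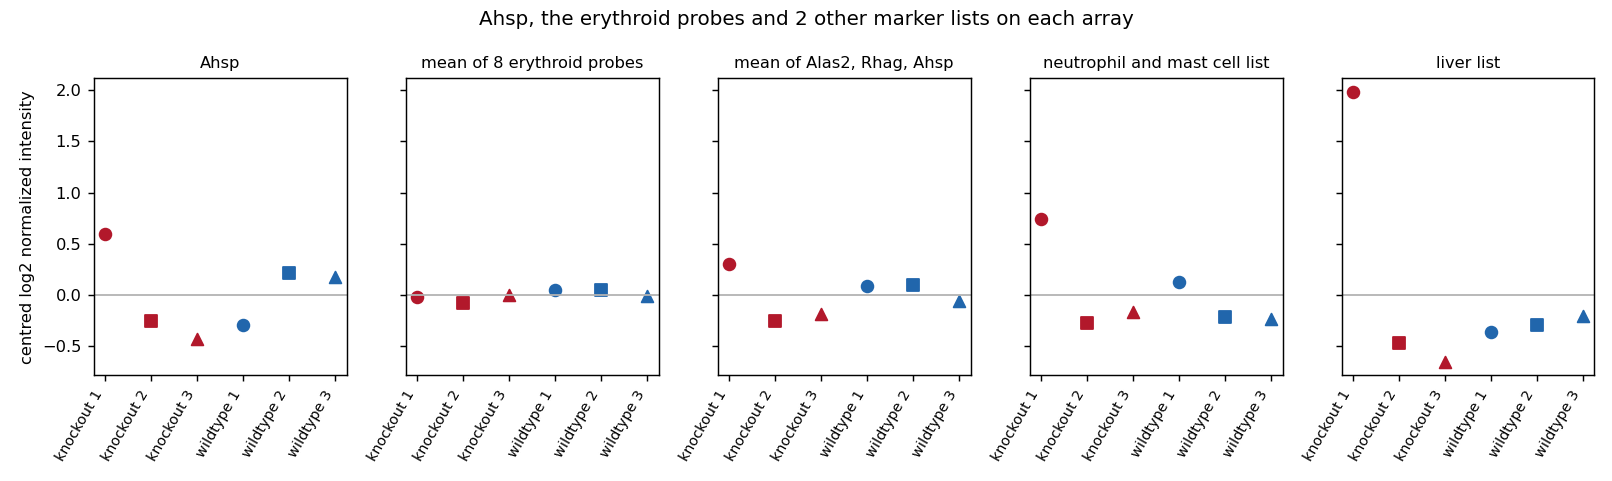
Log2 normalized intensity centred over the 6 arrays for Ahsp with its flagged spot kept, the mean of 8 erythroid probes, the mean of Alas2, Rhag and Ahsp, the neutrophil and mast cell list and the liver list, knockout arrays in red left of wildtype arrays in blue. Knockout embryo 1 is the highest array for Ahsp, for the 3-gene mean that includes it (0.30) and for both marker lists, at 1.98 for the liver list, and the 8-probe mean lies between −0.08 and 0.05.

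The genes whose profile over the 6 arrays was most like the members' mean profile were not erythroid genes of the lists. Among 3904 genes with complete values and a range of at least 1 log2 unit, the highest correlations were those of Spink4, a goblet cell peptide gene, at 0.93, BC064078 at 0.86, Tmprss6, a membrane protease that in liver limits hepcidin, at 0.85, AA467197 at 0.84, and Slc9a4, a sodium and proton exchanger of gastric parietal cells, at 0.84. Capsl followed at 0.83, Tafa2 at 0.82, 3110021A11Rik at 0.81, Vxn at 0.78 and Gm11525 at 0.76. With 6 arrays that share litters and batches, and a members' profile that spans little more than 0.1 log2 units, these values are a description.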

How the data were processed

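The authors deposited, per the file headers, scanner exports with spot mean and local background median intensity, and a series table of background-subtracted intensity divided by the array's median. Here limma's normexp (offset 50) corrected the spot means, which were then brought to common quantiles across arrays on the gene probes and log2 transformed; the deposited values are linear, not log2. Masked, irregular or contaminated spots were left out and saturated spots kept. Spots with the flag P, whose meaning the sources used here do not state, were left out as well. Features needed a signal not near background on at least 3 arrays and 2 values a group; each gene was represented by its brightest probe, and probes of several genes stayed separate. Probe names came from the platform annotation, except Ahsp, named from the authors' report. Groups were compared with limma 3.58.1 (R 4.3.3; lmFit and eBayes, no block) with Benjamini-Hochberg adjustment at 0.05 over all features. No array build is given in the sources used here.

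The members and lists were chosen with earlier results of these data known. Beyond the members, the rule named, per list, the 3 genes of largest moderated t-statistic, all embryonic globins and the 10 genes most correlated with the members' mean. A gene picked by this rule is not reported here. Gast, Alb, S100a8, S100a9 and Camp were named as markers of their tissue. The litter codes, read from the leading digits of the animal codes, were taken to pair the arrays. Within a pair, the arrays' departures from their group means correlated at 0.79, 0.41 and 0.58 across features. Without the same values between arrays of different pairs, these do not test the pairing. On simulated data of 17358 features for knockout against wildtype the fit recovered 68% of features changed by 2 log2 units and 18% of those changed by 1. The simulated noise was independent between arrays, unlike that of the litter pairs, so these rates need not hold for the real arrays. The alternatives were blocks, batch B alone, other scalings, the deposited values, array weights, no filter, flags kept and arrays left out.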

Additional observations from a re-analysis of the deposited data

How the results depend on the processing

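No erythroid probe was called by limma under any alternative, by label or by pair 3 minus pair 2. The features at an unadjusted p under 0.05 by label, 199 as reported, numbered 789 with the litter pair as replicate block, 1016 with scan batch as a block, 2042 in batch B alone and 1860 with gene by gene array weights, none past adjustment; the pairing changed no call of a member. The members' median difference by label was 0.0398 with the litter pair or the scan batch as a block, and −0.12 without the 3 probes at negative control level. With 1 array left out at a time, the remaining arrays were brought to common quantiles anew. The members' median difference by label then ran from −0.0964 to 0.0139, and the median of pair 3 minus pair 2 from −0.06 to 0.06. Alas2 was lower in 18 of 18 settings (−0.43 to −0.26, lowest adjusted p 0.356), as were the alpha-globin probe (−0.31 to −0.08) and the beta-globin cluster probe (−0.58 to −0.10, lowest adjusted p 0.297). Klf1 and Rhag were higher in 18 of 18. Ahsp turned to −0.00725 with the authors' per-sample values, −0.0052 with their series table, −0.0634 with flags kept and to −0.47 with array weights, and ran from −0.31 to 0.21 with arrays left out. Epb42 (−0.0174 to 0.093), the Ost4 and Hba-a1 probe (−0.18 to 0.30) and Slc4a1 (−0.0732 to 0.0397) also turned sign as arrays were left out; the cause was not tested. Saturation limits the globin probes, and signal at the level of negative controls limits Slc4a1, Epb42 and Klf1.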
